A study of Mus musculus with 4 samples.

Results

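Heparan sulfate is a sulfated sugar chain that cells attach to a small set of proteins, and 37 genes that build, modify, carry or cut it were followed through somatostatin (SST) interneurons of mouse somatosensory cortex. The list was fixed by gene symbol, and all 37 genes were found in the table of 28000 features. The cells came from SST-TdT-X94 mice on a Crl:CD1(ICR) background. All groups carried the same alleles: Cre recombinase expressed from the Sst gene, a tdTomato reporter that Cre switches on, and the X94 transgene, which labels a subset of SST cells with GFP. Cre activity at any earlier stage marks a cell for good, so tdTomato reports the lineage and not current Sst expression. Cells sorted for tdTomato formed 1 library from 6 pooled mice aged 97 days (P97) and 2 libraries, replicates 1 and 2, from other batches, aged 45 days (P45). Cells sorted for both GFP and tdTomato formed 1 further library from the same P97 mice. SST cells were taken as barcodes with at least 2000 unique molecular identifiers (UMIs, each marking 1 captured transcript) and at least 3 Sst UMIs, which left 1887 cells in the 3 tdTomato+ libraries (573, 668 and 646) and 211 in the GFP+/tdTomato+ library.

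The chain is begun on a serine of a core protein by xylosyltransferases, extended through a short linker and polymerized by the exostosin family. Deacetylase-sulfotransferases, an epimerase and families of O-sulfotransferases then modify it, and the rare 3-O-sulfate groups create binding sites for selected proteins. At the cell surface the Sulf enzymes remove 6-O-sulfate and heparanase, the product of Hpse, cuts the chain. Syndecans, which cross the membrane, and glypicans, which are held by a lipid anchor, are its main cell surface carriers, and in the brain these proteoglycans bind synaptic organizers, guidance cues and growth factors.

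Total UMIs per library ranged from 3410049 to 5693022. The median SST cell held 15222 UMIs in the GFP+/tdTomato+ library and between 5157.5 and 7583 in the tdTomato+ libraries, and 5 barcode sequences occurred in more than 1 library. Levels are given as CPM, the UMIs of a gene scaled to a total of 1000000 over the cells of a group in a library. Since the 3′ assay counts each captured molecule once whatever its length, CPM was set side by side between genes without a correction for length. Differences between genes in how well their transcripts are captured were not tested. The SST interneuron markers Sst, Gad1, Gad2, Lhx6, Sox6 and Elfn1 were all detected in the cells with and without Hpse, with a summed level of 6943 to 11614 CPM over the 3 tdTomato+ libraries.

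The results turn on Hpse and on Hs3st1, a 3-O-sulfotransferase. In the GENCODE annotation of GRCm38, Hpse lies at chr5:100679484-100719716 and Hs3st1 at chr5:39613935-39755475, both on the minus strand. Their promoters are shown because Hs3st1 was higher in cells that held an Hpse UMI. Hpse defined those cells, so its own level in them is not a result. RefSeq (GRCm38.p6) places these windows, from 250 bases before to 50 after the start, at chr5:100719667-100719966 for Hpse and at chr5:39644582-39644881 for Hs3st1, and capitals mark the GC box GGGCGG. The longest Hs3st1 transcript of GENCODE starts further upstream, at the end of the gene given above, so that the window covers the RefSeq start only.
Hpse promoter: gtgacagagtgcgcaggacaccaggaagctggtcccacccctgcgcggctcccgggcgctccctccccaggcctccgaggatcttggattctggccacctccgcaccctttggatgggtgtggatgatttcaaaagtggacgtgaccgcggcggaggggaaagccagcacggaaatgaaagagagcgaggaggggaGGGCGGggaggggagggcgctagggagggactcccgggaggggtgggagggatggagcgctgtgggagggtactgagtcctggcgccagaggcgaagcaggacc
Hs3st1 promoter: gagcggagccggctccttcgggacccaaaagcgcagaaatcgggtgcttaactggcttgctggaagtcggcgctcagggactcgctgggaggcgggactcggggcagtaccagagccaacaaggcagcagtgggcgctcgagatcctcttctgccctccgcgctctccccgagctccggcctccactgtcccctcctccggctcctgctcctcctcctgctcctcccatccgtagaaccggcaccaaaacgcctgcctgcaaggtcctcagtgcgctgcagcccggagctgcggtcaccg
Both windows are 67% G or C, against a median of 52.67% over 32851 RefSeq promoters of the same length. On both strands, the GC box occurred 1 time in the Hpse window and not in that of Hs3st1, and 35.7% of all promoters hold it. The E-box CANNTG, present in 72.3% of all promoters, TATAAA (13.6%) and CCAAT (37.4%) had no match in either window.

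Over all SST cells of the 3 tdTomato+ libraries, the level was at least 100 CPM for 4 genes, between 20 and 100 for 15, between 5 and 20 for 7 and under 5 for 9. The remaining 2, the heparanase homologue Hpse2 and the glypican Gpc2, had no UMI, which allows a level of up to 0.227 CPM. B3gat3, which adds the last sugar of the linker, was highest at 165, 205 and 191 CPM in the P97 library and P45 replicates 1 and 2. Extl2, an exostosin-like transferase, stood at 165, 161 and 170 CPM, so that these 2 genes overlapped. Below them came the syndecan Sdc3 at 115, 136 and 149 CPM and the extracellular 6-O-endosulfatase Sulf2 at 108, 96.8 and 110 CPM, and their ranges did not overlap.

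Within each step of the pathway, 1 or 2 genes supplied most of the UMIs. Glce, the epimerase, reached 69.9 ± 7.46 CPM (SD, n = 3 libraries) and Hs2st1, the 2-O-sulfotransferase, 48.3 ± 2.43. Among the deacetylase-sulfotransferases Ndst1 led with 21.7 ± 1.60 CPM, while Ndst3 and Ndst4 averaged 6.89 ± 1.87 and 7.05 ± 5.84. Hs3st1 was the most abundant 3-O-sulfotransferase, at 29.0 ± 4.26 CPM, followed by Hs3st5 at 12.9 ± 4.10, and Hs3st2 and Hs3st4 stayed below 2.5 CPM in every tdTomato+ library. Of the 6-O-sulfotransferases, Hs6st1 (41.3 ± 6.22) and Hs6st2 (37.7 ± 7.56) overlapped, and Hs6st3 had 4 UMIs in all. The glypican with the most UMIs was Gpc1, at 38.2 ± 4.19 CPM. Sulf1, Sdc1, Sdc4 and Gpc3 were held to 8 UMIs or fewer each.

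**Figure D1:**
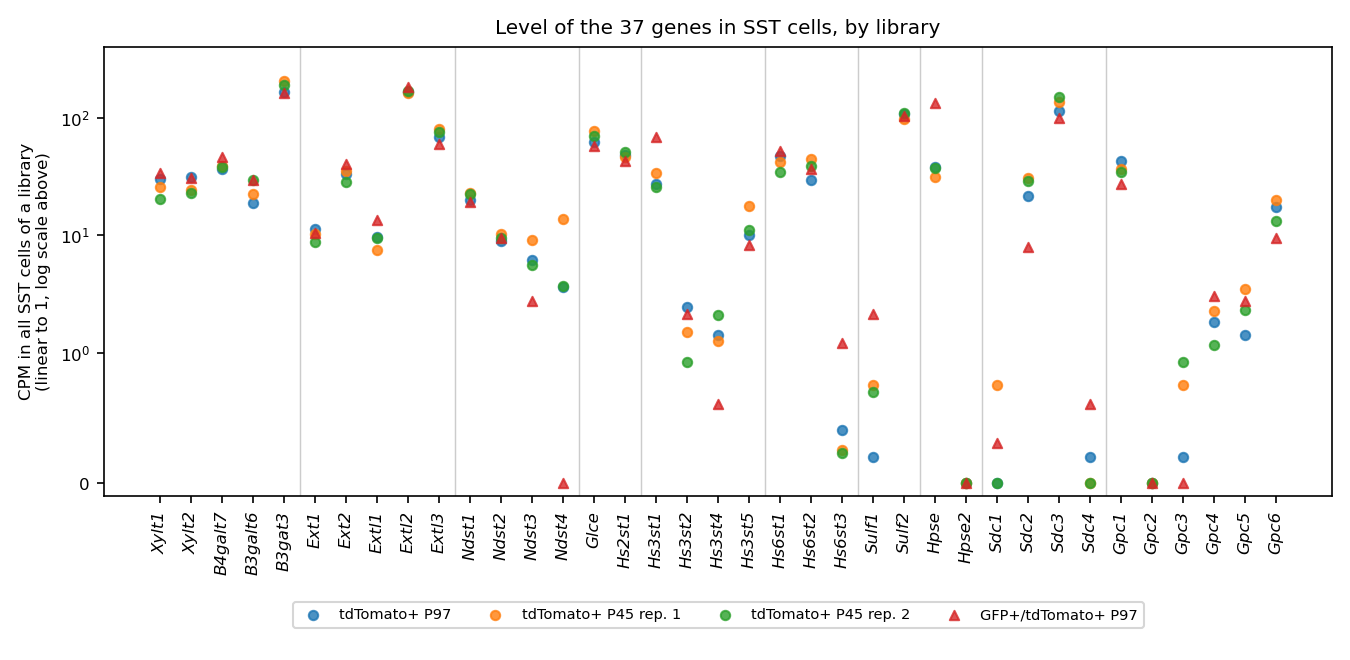
Level of each of the 37 genes (CPM, linear up to 1 and logarithmic above) in all SST cells of each library, with genes in the order of the pathway and grey lines between its steps. Circles are tdTomato+ libraries and triangles the GFP+/tdTomato+ library. The circles of a gene lie close together for most genes. The triangles of Hpse (134 CPM) and Hs3st1 (67.9 CPM) lie above all 3 circles. So do those of several other genes, such as Extl2 (184 CPM), B4galt7 (46.6 CPM) and Ext2 (40.2 CPM).

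Hpse, which encodes the enzyme that cleaves the chain, was carried by a minority of SST cells. Its level was 38.4 CPM in the P97 library, 31.4 in P45 replicate 1 and 37.5 in P45 replicate 2. At least 1 Hpse UMI was found in 79 of 573 P97 cells (13.8%, exact Clopper-Pearson 95% interval 11.1 to 16.9%), in 64 of 668 (9.58%, 7.46 to 12.1%) and in 74 of 646 (11.5%, 9.10 to 14.2%). These intervals cover counting error only. As a measure of free RNA, 2 of 104 cells with at least 3 UMIs of Slc17a7, the vesicular glutamate transporter of excitatory neurons, and fewer than 3 of Sst held an Hpse UMI (1.92%, 0.234 to 6.77%), with a median depth of 7428 UMIs against 6126 in SST cells. Single SST cells held up to 9 Hpse UMIs in the tdTomato+ libraries. Cells with an Hpse UMI were deeper, at a median of 9156 UMIs against 5860 in cells without one, and with each cell thinned to 2000 UMIs the shares became 4.71%, 2.69% and 4.49%.

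The central comparison asked which of the other genes differed between the 217 Hpse-positive and the 1670 Hpse-negative SST cells. Of the genes that passed, Hs3st1 rose most and the sulfatase Sulf2, the syndecan Sdc2, the glypican Gpc6 and the 3-O-sulfotransferase Hs3st5 fell, while Hs6st1 and Extl2 rose by smaller amounts. UMIs were summed per library and group, and 10683 genes were tested in edgeR by the quasi-likelihood method, with each library as a block. Of the 37 genes, 24 passed the filter on low counts and 7 of these passed at a Benjamini-Hochberg adjusted p under 0.05, 3 higher and 4 lower, where 11.6% of all genes tested passed (5.71% higher and 5.89% lower). The median log2 fold change was -0.24 over the 24 genes and -0.0025 over all genes tested. Hpse itself defined the groups and was left out.

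Hs3st1, which adds the 3-O-sulfate that forms the antithrombin site of heparin, stood at 41.9 CPM in Hpse-positive cells of the P97 library and at 71.0 and 71.3 CPM in P45 replicates 1 and 2. Hpse-negative cells held 23.8, 27.8 and 18.4 CPM. The groups did not overlap, and the log2 fold change was 1.39 (SE 0.19, edgeR adjusted p = 6.18e-08). The difference was largest in P45 replicate 2 and smallest at P97. The call was kept in all 15 alternative analyses, with log2 fold changes from 1.12 to 2.46 and adjusted p up to 0.0076. With every cell thinned to 2000 UMIs, 37 of 217 Hpse-positive cells (17.1%, exact interval 12.3 to 22.7%) held an Hs3st1 UMI against 59 of 1670 Hpse-negative cells (3.53%, 2.70 to 4.53%). These intervals pool the cells of 3 libraries and cover counting error only. By library the Hs3st1 shares were 12.7, 21.9 and 17.6% against 3.44, 4.47 and 2.62%. For the other 6 genes that passed, a Sulf2 UMI was in 18.0% against 19.6%, Sdc2 in 4.15% against 5.63% and Hs6st1 in 8.29% against 7.60%. Extl2 was in 29.0% against 25.7%, Hs3st5 in 1.84% against 2.93% and Gpc6 in 0.461% against 3.23%. The library shares of the 2 groups overlapped for Sulf2, Sdc2, Hs6st1 and Hs3st5 but not for Extl2 and Gpc6. At full depth 14 of the 104 Slc17a7-positive cells held an Hs3st1 UMI (13.5%), against 14.8% of all SST cells. A single Hs3st1 UMI thus did not set SST cells apart from this other class.

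The level of Hs3st1 was also read against the number of Hpse UMIs in a cell. It averaged 23.3 ± 4.70 CPM (SD, n = 3 libraries) with none, 55.2 ± 10.8 with 1, 63.0 ± 9.41 with 2 and 72.4 ± 32.5 with 3 or more. All 3 libraries lay higher with 1 Hpse UMI than with none, whereas the steps beyond 1 were within the spread between libraries. Hs3st1 went from 44.6 to 35.7 CPM between 1 and at least 3 Hpse UMIs in the P97 library and from 54.9 to 97.6 in P45 replicate 1. Extl2 averaged 160 ± 8.15, 166 ± 38.2, 196 ± 47.1 and 228 ± 21.6 CPM over the same 4 classes, and Hs3st5 14.1 ± 3.97, 8.74 ± 7.37, 8.20 ± 7.40 and 0.794 ± 1.37. Cell depth rose alongside, from a median of 5860 to 11006 UMIs, and its part in these differences was not tested.

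The other genes that rose, Hs6st1 and Extl2, changed less than Hs3st1. Hs6st1, a 6-O-sulfotransferase, had 57.0, 56.8 and 50.2 CPM in Hpse-positive cells of the P97 library and P45 replicates 1 and 2, and 44.8, 39.7 and 32.2 CPM in Hpse-negative cells. No value overlapped between the groups, and the log2 fold change was 0.52 (SE 0.16, edgeR adjusted p = 0.028). Extl2 reached 174, 220 and 188 CPM in Hpse-positive cells and 163, 151 and 167 CPM in the others (log2 fold change 0.30, SE 0.10, edgeR adjusted p = 0.045). With all cells thinned to 2000 UMIs before Hpse was called, the fitted values of these genes took the opposite sign, at -0.34 for Hs6st1 and -0.43 for Extl2, and neither passed.

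Of the genes that fell, Sulf2 was the most abundant. It stood at 76.3, 62.1 and 89.1 CPM in Hpse-positive cells and at 115, 103 and 114 CPM in Hpse-negative cells (log2 fold change -0.51, SE 0.13, edgeR adjusted p = 0.0052). Sdc2, a syndecan of dendrites and dendritic spines, had 9.68, 12.4 and 21.1 CPM against 24.3, 33.6 and 30.0 (log2 fold change -1.01, SE 0.27, adjusted p = 0.0057 by edgeR). For both genes every Hpse-positive value was below every Hpse-negative value. In cells thinned to 2000 UMIs the log2 fold changes were -0.35 for Sulf2 and -0.55 for Sdc2, and neither passed (edgeR adjusted p = 0.92 and 0.96).

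The last 2 members to pass carried few UMIs. Gpc6, a glypican known from astrocytes as a promoter of excitatory synapses, was at 6.45, 14.2 and 4.86 CPM in Hpse-positive cells and at 19.8, 20.7 and 14.6 CPM in the rest (log2 fold change -1.15, SE 0.35, edgeR adjusted p = 0.020). Hs3st5 was at 3.23, 10.6 and 4.86 CPM against 11.5, 18.7 and 12.2 (log2 fold change -1.21, SE 0.41, edgeR adjusted p = 0.042). Neither gene overlapped between the groups. Apart from Hs3st1, these calls depended on the libraries and the tool. Without the P97 library 1 member passed, without P45 replicate 1 there were 2, without P45 replicate 2 there were 4, and with DESeq2 or without the library block there was 1.

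**Figure D2:**
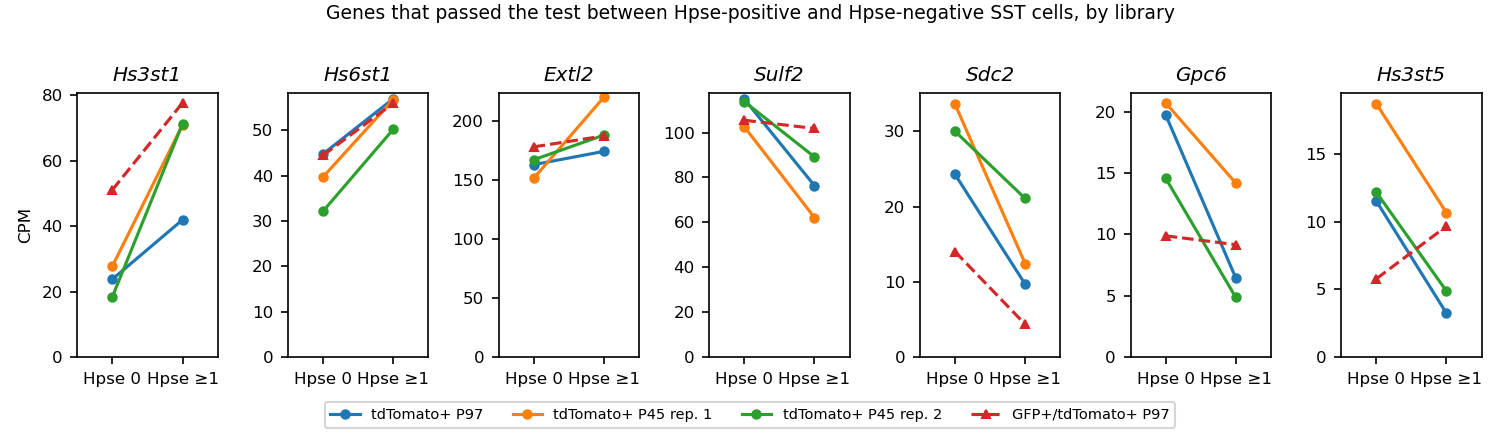
Level (CPM, linear axes from 0) of the 7 genes that passed the test in Hpse-negative and Hpse-positive SST cells. Each line joins the groups of 1 library, and the dashed line with triangles is the GFP+/tdTomato+ library, which was not in the test. Hs3st1 rises in all 4 libraries, from 18.4 to 71.3 CPM in P45 replicate 2, and Sdc2 falls in all 4.

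The 17 other genes tested did not pass. Among them, B3gat3 had a log2 fold change of -0.03 (SE 0.10), Ndst1 of -0.35 (SE 0.28), Glce of -0.36 (SE 0.15), Sdc3 of -0.11 (SE 0.11) and Gpc1 of -0.50 (SE 0.20). Gpc1 passed in 1 of 15 alternatives and the other 4 in none. Another 12 genes did not pass the filter. Of these, Ndst4 had no UMI in any Hpse-positive cell and 89 in Hpse-negative cells, at 4.51, 16.1 and 4.33 CPM, and was at least 5.63-fold lower when 3 UMIs over the Hpse-positive cells are allowed. Hs3st2 and Hs3st4 had no UMI in Hpse-positive cells of these libraries, with 22 and 21 UMIs in the rest, which bounds them only at 1.39- and 1.33-fold lower. Hpse-positive cells of the GFP+/tdTomato+ library did hold both genes. Hs3st2 was at 2.41 against 1.65 CPM there, with 5 UMIs in Hpse-positive cells, and Hs3st4 at 0.483 against 0.824 CPM, with 1. Gpc5, a glypican, moved the other way, at 3.23, 12.4 and 6.48 CPM in Hpse-positive and 1.001, 2.05 and 1.62 CPM in Hpse-negative cells. Its groups did not overlap but rest on 14 and 17 UMIs, and in the GFP+/tdTomato+ library it was at 2.895 against 2.47 CPM.

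Markers of other cell types moved with the split. The summed level of 6 excitatory markers was 3.23 to 3.55 CPM in Hpse-positive and 25.4 to 35.9 CPM in Hpse-negative cells, with Tbr1 and Neurod2 at 0 in the former. The 6 oligodendrocyte markers summed to 29.0, 40.8 and 2087 CPM in Hpse-positive cells, the last in P45 replicate 2, and to 828 to 1242 CPM in the rest. The 7 microglial markers were at or near 0 in both groups, with sums of 0 and of 0 to 0.541 CPM. Oligodendrocyte precursor markers overlapped, at 0 to 29.2 against 18.7 to 27.5 CPM, and the 7 endothelial and mural markers summed to 0 to 3.24 against 3.51 to 7.51 CPM. Astrocyte markers, which bear on Gpc6, summed to 3.23 to 3.55 CPM against 12.4 to 22.8 CPM, with 5 of 6 genes at 0 in Hpse-positive cells. The sum of 5 markers of other interneurons was higher in Hpse-positive cells, at 758, 896 and 1079 against 418, 559 and 599 CPM. Not all 5 rose, since Lamp5 and Htr3a were at 0 in Hpse-positive cells and detected in the rest. Without the 13 cells that held at least 10 oligodendrocyte marker UMIs, 7 members passed. Without cells of at least 3 Slc17a7 UMIs 6 members passed, and Hs3st1 (log2 fold change 1.39), Sulf2 (-0.52), Sdc2 (-1.02) and Gpc6 (-1.17) stayed close to their values, while Extl2 did not pass (0.28, edgeR adjusted p = 0.059). The part of the astrocyte and other interneuron markers in the result was not tested.

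A wider set of 51 genes that supply, degrade or bind heparan sulfate was read in the same fit. Of the 39 tested, 2 were higher and 8 lower in Hpse-positive cells, where 5.71% and 5.89% of all genes tested were, and the median log2 fold change was -0.08. Precursor supply genes did not pass in either direction (0 of 9). The largest group held synaptic and axonal proteins that bind the chain, of which 1 of 13 tested was higher and 5 were lower, against the same 5.71% and 5.89%. Ptprd, a receptor phosphatase of the synapse, rose from 113, 141 and 102 CPM in Hpse-negative cells to 171, 293 and 203 CPM in Hpse-positive cells (log2 fold change 0.91, SE 0.10, edgeR adjusted p = 3.72e-10). Lrrtm4, a postsynaptic partner of glypicans, fell from 27.8, 42.7 and 32.7 CPM to 1.08, 10.6 and 9.72 (log2 fold change -2.38, SE 0.33, edgeR adjusted p = 9.89e-08). The groups did not overlap for either gene. In the GFP+/tdTomato+ library, which was not in the test, Ptprd went the other way, at 171 CPM in Hpse-positive and 212 CPM in Hpse-negative cells, and Lrrtm4 was at 9.17 against 18.1 CPM.

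The other genes of that group that fell were Lrrtm3 (log2 fold change -0.57), the receptor phosphatase Ptprf (-0.56), the guidance cue Slit3 (-1.74) and the Slit receptor Robo1 (-0.84). Slit3 rests on 5 UMIs in Hpse-positive cells (edgeR adjusted p = 0.0496), and the Ptprf groups overlapped. Nrxn3, a presynaptic neurexin that can itself carry heparan sulfate, rose from 1188 ± 26.1 CPM (SD, n = 3 libraries) to 1725 ± 189 (log2 fold change 0.57). Pxylp1, which removes phosphate from the linker xylose, fell by 0.94 on the log2 scale, Ids, the lysosomal iduronate sulfatase, by 0.40 and Timp3, a metalloprotease inhibitor that binds heparan sulfate, by 0.43. The Timp3 groups overlapped. In the GFP+/tdTomato+ library Slit3 went the other way, at 3.86 CPM in Hpse-positive and 1.65 CPM in Hpse-negative cells. Pxylp1 was nearly equal there, at 9.17 against 9.07 CPM, and the other genes of this paragraph kept their direction.

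The Hpse split mixed cells of several marker groups, since 115 of the 217 Hpse-positive cells (53.0%) also held a Pvalb UMI and 32 (14.7%) a Nos1 UMI. The next comparison therefore used cells positive for exactly 1 of Hpse, Calb2, Pvalb, Crh, Th, Nos1 and Myh13, and set Hpse-only cells against the mean of the other single-marker groups. Of 17 members tested, Hs3st1 alone passed, where 5.82% of all genes tested did (log2 fold change 1.83, SE 0.38, edgeR adjusted p = 0.00056). Hpse-only cells held 83.4, 35.6 and 89.9 CPM of Hs3st1 in the P97 library and P45 replicates 1 and 2. The 280 Pvalb-only cells held 23.1, 29.4 and 12.5, and the 111 Myh13-only cells 16.1, 6.12 and 5.16. Calb2-only and Crh-only cells overlapped the Hpse-only cells, with 39.3 and 79.3 CPM in P45 replicate 1, and Th-only cells reached the minimum of 10 cells in P45 replicate 1 only, at 52.3 CPM. Without P45 replicate 2 the log2 fold change was 1.22 and did not pass (edgeR adjusted p = 0.22). In cells thinned to 2000 UMIs, and in cells of at least 5000 UMIs, Hs3st1 did not reach the filter on low counts and 0 members passed. Among cells the share with an Hs3st1 UMI ran from 40.0% of 70 Hpse-only cells to 3.60% of the Myh13-only cells.

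The same test was run on cells positive against cells negative for each of 6 other markers. These comparisons share cells with the Hpse split and with each other, and their values are given for each on its own. Hs3st1 passed in none of the 6, with log2 fold changes from -0.47 (Myh13) to 0.50 (Th). Hpse passed in all 6 and was higher in Pvalb-positive cells and lower in the other 5. Most of these Hpse calls were not kept in thinned cells. There no member passed for Calb2, Crh or Myh13, only Ndst4 passed for Nos1, and Th could not be fitted. In the Pvalb split Hpse lost its call in 1 of 8 alternatives, with log2 fold changes from 0.43 to 1.14.

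Most UMIs of Ndst4 came from cells with Nos1, the neuronal nitric oxide synthase. Ndst4, a deacetylase-sulfotransferase of the N-sulfation step, stood at 19.6, 39.6 and 19.9 CPM in Nos1-positive cells of the P97 library and P45 replicates 1 and 2, and at 0, 1.84 and 0 CPM in Nos1-negative cells. The groups did not overlap, with 84 UMIs in the former and 5 in the latter, and Ndst4 passed the test (edgeR adjusted p = 6.68e-10). It had reached the filter on low counts through the Nos1-positive cells, so that its call is not independent of its high level there and its fitted fold change rests on 5 UMIs. Of 47 cells with an Ndst4 UMI, 45 were Nos1-positive. In the 79 cells with at least 5 Nos1 UMIs the level was 105, 125 and 109 CPM, whereas cells with 2 to 4 Nos1 UMIs held 12.1, 0 and 11.0 CPM. Those 79 cells, of which 41 held an Ndst4 UMI, had no Hpse UMI in any of the 3 libraries.

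Of 26 members tested, 3 passed in the Nos1 split, Ndst4 among them, where 5.04% of all genes did. Hpse averaged 19.1 ± 6.56 CPM in Nos1-positive cells against 40.4 ± 4.04 (SD, n = 3 libraries) without overlap (log2 fold change -1.02, SE 0.21, edgeR adjusted p = 0.0014). Gpc6 averaged 25.8 ± 5.88 CPM against 14.7 ± 4.83 (SD, n = 3 libraries) with overlapping groups (log2 fold change 0.84). Without the P97 library neither Hpse (edgeR adjusted p = 0.079) nor Gpc6 (0.36) passed, and without P45 replicate 2 Gpc6 did not (0.26). With DESeq2, without the library block and in thinned cells 1 member passed. In the 79 cells with the most Nos1, Gpc6 was at 43.6, 2.49 and 0 CPM.

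**Figure D3:**
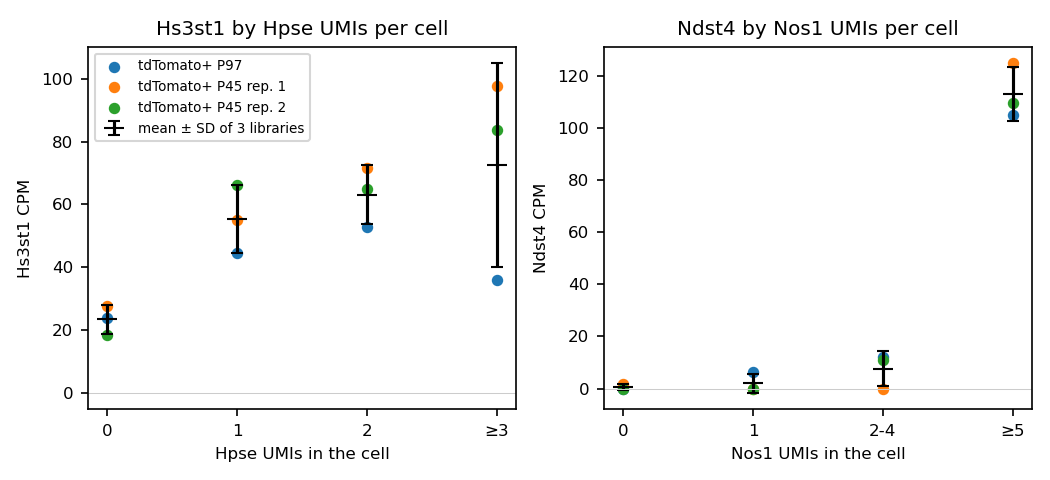
Level of Hs3st1 by the number of Hpse UMIs in a cell (left) and of Ndst4 by the number of Nos1 UMIs (right), in CPM on linear axes. Points are the 3 tdTomato+ libraries and bars the mean ± SD. Hs3st1 is higher from 1 Hpse UMI on, while Ndst4 lies between 0 and 12.1 CPM below 5 Nos1 UMIs and between 105 and 125 CPM from 5 on.

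Calb2, the calretinin gene, split off cells with more Ndst4 and Hs3st5 and less Sulf2 and Hpse. Of 27 members tested, 4 passed, against 5.34% of all genes. Sulf2 stood at 71.8, 68.8 and 46.2 CPM in Calb2-positive cells and at 112, 105 and 123 CPM in the others, without overlap (log2 fold change -0.81, SE 0.15, edgeR adjusted p = 0.0018). Hpse had 13.6, 18.0 and 14.4 CPM against 41.3, 35.2 and 41.9 (log2 fold change -1.27, SE 0.23, edgeR adjusted p = 0.0016). Ndst4 averaged 18.9 ± 8.92 against 4.92 ± 5.01 CPM with overlapping groups (log2 fold change 1.99), and Hs3st5 24.0 ± 6.88 against 11.1 ± 4.28 without overlap (1.11). Neither of these passed without the P97 library (edgeR adjusted p = 0.054 and 0.25), and DESeq2 called 2 members in all, as did edgeR without the library block. In thinned cells no member passed. Ndst4 had reached the filter on low counts through the Calb2-positive cells, so that its call is not independent of its high level there. Nos1 UMIs were present in 38.8% of the Calb2-positive cells. The 107 cells positive for Calb2 alone among the 7 markers held no Ndst4 UMI in any library, and the 118 Nos1-only cells held 43.

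Pvalb-positive cells, 626 in number, had the most members that passed, 8 of 26 tested, where 14.8% of all genes did. Xylt1, one of the enzymes that start the chain, stood at 17.1, 12.9 and 14.0 CPM in Pvalb-positive and at 46.7, 31.8 and 24.1 CPM in Pvalb-negative cells (log2 fold change -1.25, SE 0.18, edgeR adjusted p = 2.38e-07). Hpse had 48.8, 52.5 and 49.6 CPM against 24.5, 21.0 and 30.6 (log2 fold change 0.97, SE 0.14, edgeR adjusted p = 3.88e-07). Ndst4 was at 0.356, 0 and 0 CPM against 8.02, 20.6 and 5.83, and it reached the filter through the Pvalb-negative cells. None of these overlapped.

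Extl2 rose by 0.39 and Hs6st1 by 0.47 on the log2 scale in Pvalb-positive cells, while Sulf2 fell by 0.50, Hs3st5 by 1.15 and Sdc2 by 0.58. The Hpse split regroups the same cells, 115 of which were positive for both markers. There the values of these genes were 0.30, 0.52, -0.51, -1.21 and -1.01. With DESeq2 or without the library block, 3 of the 37 members passed in the Pvalb split. Hs6st1 and Sdc2 did not pass without the P97 library (edgeR adjusted p = 0.061 and 0.065), nor Sdc2 without P45 replicate 2 (0.075). Pvalb-positive cells were deeper than Pvalb-negative cells, at medians of 8258.5 and 5302 UMIs.

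Myh13-positive cells held less Hpse, Gpc6 and Hs6st1 and more Xylt1 and Sulf2, so that 5 of 25 members tested passed, against 5.6% of all genes. Gpc6 had no UMI in the 155 Myh13-positive cells and stood at 18.4, 21.3 and 14.1 CPM in the rest, at least 5.12-fold lower when 3 UMIs over the group are allowed. Hpse was at 3.39, 14.1 and 0 CPM against 40.6, 32.7 and 40.1 (log2 fold change -2.71, SE 0.51, edgeR adjusted p = 0.00064). Gpc6 and Hpse reached the filter on low counts through the Myh13-negative cells, so that their calls are not independent of their high levels there. Sulf2 reached 217, 127 and 139 CPM against 101, 94.5 and 108 (log2 fold change 0.64). Xylt1 averaged 51.9 ± 28.6 CPM against 23.5 ± 3.89 (1.09), and Hs6st1 18.5 ± 6.93 against 42.9 ± 6.12 (-1.24). Without the P97 library only Gpc6 passed, and without P45 replicate 2 only Gpc6 and Hpse did. DESeq2 called 2 members, and 0 passed in thinned cells.

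In the Crh and Th splits Hpse was the only member that passed, 1 of 25 tested in each, where 5.11% and 3.73% of all genes did. In the 176 Crh-positive cells Hpse stood at 11.7, 24.9 and 6.40 CPM against 40.9, 31.9 and 42.8 (log2 fold change -1.65, SE 0.33, edgeR adjusted p = 0.0011). That call was lost without the P97 library (edgeR adjusted p = 0.10), without P45 replicate 2 (0.072) and in thinned cells. DESeq2 called no member in either split. All 36 Th-positive cells came from the P45 libraries and held no Hpse UMI, while Th-negative cells there had 32.3 and 38.6 CPM, which makes Hpse at least 2.82-fold lower when 3 UMIs over the group are allowed (edgeR adjusted p = 0.040). In this split Hpse reached the filter on low counts through the Th-negative cells, so that its call is not independent of its high level in them.

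**Figure D4:**
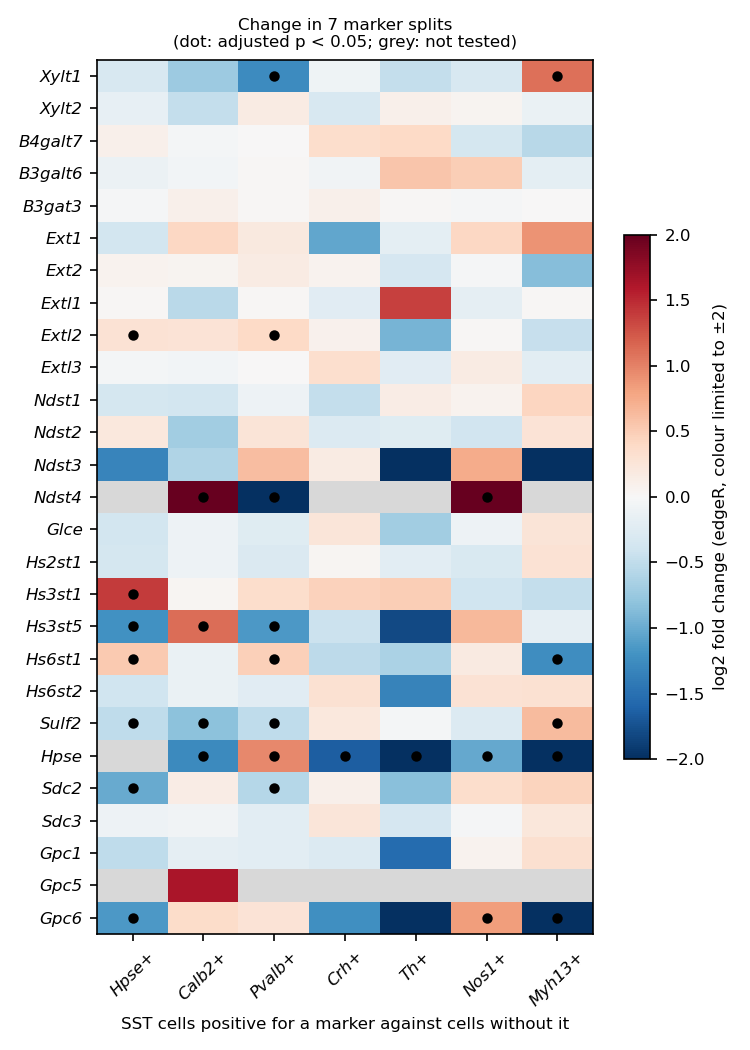
Log2 fold change of each gene that was tested in at least 1 of 7 splits of the SST cells by a marker (columns), with colour limited to 2 in either direction, dots for edgeR adjusted p under 0.05 and grey for genes not tested. Hpse carries a dot in all 6 columns where it was tested, red for Pvalb and blue for the others, while Hs3st1 carries a dot in the Hpse column only. Members with no UMI in a group take the darkest colours, and their fitted values are not bounds.

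SST cells were also set against the 104 Slc17a7-positive cells of the same tdTomato+ libraries (15, 66 and 23 cells), a comparison added after the data had been seen. Both classes passed the same tdTomato gate, so the Slc17a7-positive cells are those that came through the sort and not a sample of cortical excitatory neurons. Of 29 members tested, 11 passed, 4 higher and 7 lower in SST cells, where 20.1% of all genes did (9.47% higher and 10.6% lower). The classes differed in which enzyme of a step they held. Hs3st2 stood at 2.44, 1.51 and 0.927 CPM in SST cells and at 61.3, 45.1 and 38.1 CPM in Slc17a7-positive cells (log2 fold change -4.90, SE 0.48, edgeR adjusted p = 7.15e-07). Hs3st4, of the same step, had 1.42, 1.25 and 2.08 CPM against 20.4, 36.9 and 70.7 (log2 fold change -4.69, SE 0.51, edgeR adjusted p = 2.52e-06). Both genes reached the filter on low counts through the Slc17a7-positive cells, so that their calls are not independent of their high levels there. Hs3st1 did not pass (29.0 ± 4.26 against 17.9 ± 6.22 CPM).

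Among exostosins and exostosin-like transferases, Extl2 was higher in SST cells, at 165 ± 4.50 against 49.4 ± 21.0 CPM (SD, n = 3 libraries). Ext1, a subunit of the polymerase, was lower, at 10.2 ± 1.29 against 53.5 ± 11.3 CPM. Their log2 fold changes were 1.66 (SE 0.25) and -2.39 (SE 0.36). Extl1 and the N-sulfation gene Ndst3 were lower, with log2 fold changes of -2.70 and -2.92. Sulf2 was higher in SST cells (105 ± 7.12 against 37.8 ± 16.4 CPM), as were Glce (69.9 ± 7.46 against 23.6 ± 13.2) and Hpse (35.8 ± 3.83 against 2.39 ± 2.57). Xylt1 and Gpc4 were lower, with log2 fold changes of -1.12 and -2.55. Gpc4 likewise reached the filter through the Slc17a7-positive cells, and Hpse through the SST cells. Xylt1 did not pass without the P97 library (edgeR adjusted p = 0.26), and Glce and Gpc4 did not without P45 replicate 1 (0.063 and 0.20).

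Across ages, 28 members were tested between the P97 library and the 2 P45 libraries and 0 passed with edgeR, where 1.75% of all genes did. At an unadjusted p under 0.05 there were 4, and DESeq2 called 0. Sdc3 had the smallest level at P97 (115 CPM against 136 and 149), with a log2 fold change of -0.32 (SE 0.12, edgeR adjusted p = 0.29). Since P97 had 1 library, the spread came from the 2 P45 libraries, and the P97 library is assumed to vary like them. With 1 batch of mice at P97, its age and its batch cannot be told apart.

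The GFP+/tdTomato+ library was compared with the P97 tdTomato+ library from the same mice, 1 library each, so no test was possible and intervals cover counting error only. Of 29 members with at least 10 UMIs in both together, 2 were past 2-fold higher in the GFP+ sort, 3 past 2-fold lower and 24 within 2-fold, where 9.7% of all genes were past 2-fold (2.68% higher and 7.02% lower). Hpse was at 134 against 38.4 CPM, a ratio of 3.50 (exact 95% interval 2.94 to 4.17), and 56.9% of GFP+ cells held an Hpse UMI. Hs3st1 was at 67.9 against 27.2 CPM (ratio 2.49, 2.005 to 3.11). Both lay above every tdTomato+ library, as did several members within 2-fold, such as Extl2, B4galt7 and Ext2.

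Lower in the GFP+ sort were Sdc2, at 7.91 against 21.5 CPM (ratio 0.368, 0.230 to 0.569), Ndst3 (0.450, 0.188 to 0.972) and Ndst4, which had no UMI against 18. Cells of the GFP+ sort were deeper (medians of 15222 and 7583 UMIs). With cells thinned to 2000 UMIs, Ext2 (2.11, 1.14 to 3.88), Ndst1 (0.247, 0.0281 to 1.004) and Gpc6 (0.472, 0.119 to 1.38) were also past 2-fold, while Ndst4 had too few UMIs. Ndst1 and Gpc6 rest on 2 and 4 UMIs of the thinned GFP+ sort. The share of all genes past 2-fold is given at full depth only. In cells of at least 5000 UMIs Ndst3 lay within 2-fold (0.504) and Gpc5 past it (2.10, 0.668 to 7.18), and Hpse, Hs3st1 and Sdc2 were past 2-fold under both. The GFP+ sort held 22 Nos1-positive cells, and none of them had an Ndst4 UMI. Sulf2, which fell in the Hpse split, had a ratio of 0.959 (0.834 to 1.10).

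The ratio of Hs3st1 between the sorts was also taken within the Hpse groups. Among Hpse-positive cells it was 77.7 against 41.9 CPM (ratio 1.85, 1.30 to 2.70) and among Hpse-negative cells 51.1 against 23.8 CPM (ratio 2.15, 1.53 to 2.99). Inside the GFP+ library, Hpse-positive cells held 1.52 times the Hs3st1 level of Hpse-negative cells (1.13 to 2.07), and Sdc2 had a ratio of 0.310 (0.122 to 0.735). Hs3st5, lower in Hpse-positive tdTomato+ cells, had a ratio of 1.67 (0.680 to 4.68) there, and Sulf2 of 0.965 (0.771 to 1.21).

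**Figure D5:**
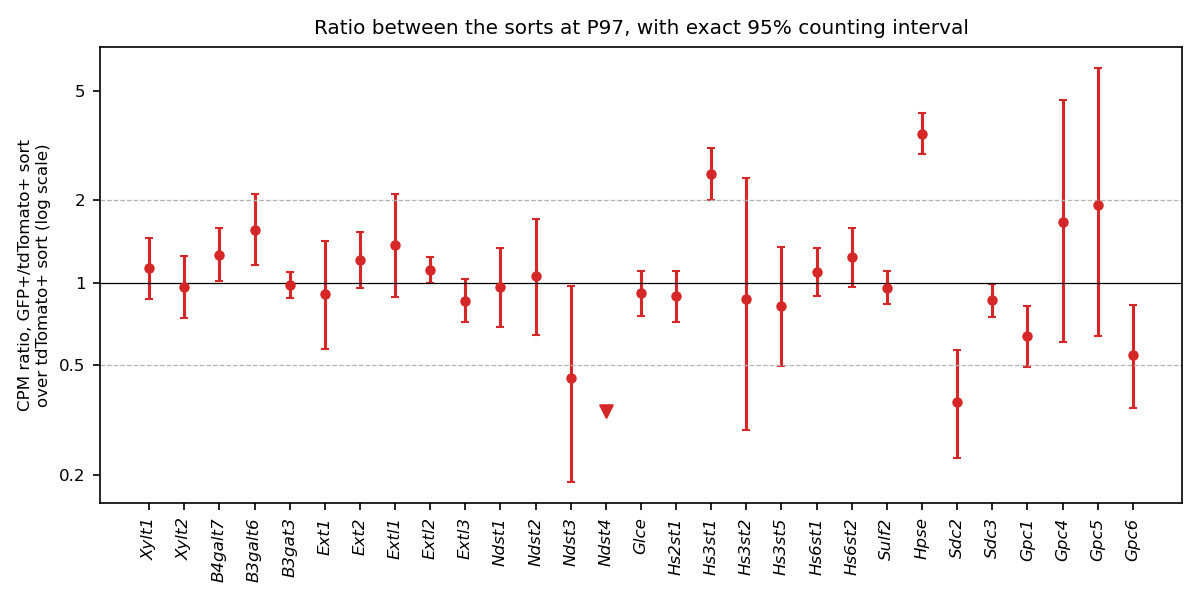
Ratio of CPM between the GFP+/tdTomato+ and the tdTomato+ library at P97 for 29 genes, on a log axis with exact 95% intervals for counting error. Dashed lines mark 2-fold, and the triangle for Ndst4, with no UMI in the GFP+ library, is the upper bound of its interval (0.341). Hpse (3.50) and Hs3st1 (2.49) lie above the upper line and Sdc2 (0.368) below the lower one.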

How the data were processed

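Cells were captured with the Chromium 3′ system. Per the authors, Cell Ranger 2.0.0 was used for alignment to GRCm38 and for counting, and the deposited counts are raw UMIs of each gene in each called cell. The sources used here do not name the gene annotation, and positions are those of GENCODE.

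SST cells (at least 2000 UMIs and 3 Sst UMIs) were grouped by the presence of a marker UMI. Counts were summed per library and group of at least 10 cells and tested in R 4.3.3 with edgeR 4.0.16 (TMM, filterByExpr, quasi-likelihood, library as a block, Benjamini-Hochberg adjustment over all genes tested). The marker was left out of its own test. The block rests on the design, because all groups within 1 library share their mice. P-values compare sums of the same cells over 3 libraries and do not allow for free RNA. Standard errors were derived from the fold change and its F statistic. Doublets were not called. Cells with at least 3 Slc17a7 UMIs and the deepest 2% of cells were left out as alternatives, as listed in the closing section along with DESeq2 1.42.0, other filters, thinning to 2000 UMIs (seed 1) and leaving out each library. Intervals at 95% are exact.

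The 37 members and the lists were chosen with earlier results of these data known. Genes were named where they passed a test, or led their step in UMIs. Others, such as Ndst3, Ndst4, Hs3st2, Hs3st4, Hs6st2, Hs6st3, Sulf1, Sdc1, Sdc4 and Gpc3, were named after their values were seen. The test was tried on simulated data with 200 altered genes. It found 98% of those altered 2-fold and 100% of those altered 4-fold for the Hpse split (10546 genes), and 6.6% of its calls were false. The ages gave 69% and 95% (11904 genes, 9.39% false) and SST against Slc17a7-positive cells 31% and 78% (10677 genes, 1.8% false).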

Additional observations from a re-analysis of the deposited data

How the results depend on the processing

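Of 156 counts of calls under the alternatives, 87 stayed within 1.5 times the main count and 69 did not, and the cause of these differences was not tested. Counts below are for all genes tested, with those of the 37 members following. The splits are named by their marker.

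Without the library block, which pairs groups from the same mice, calls over all genes went from 1239 to 431 for Hpse, 564 to 127 for Calb2, 1612 to 275 for Pvalb, 550 to 182 for Crh, 531 to 100 for Nos1 and 590 to 255 for Myh13. Members that passed went to 1, 2 and 3 for Hpse, Calb2 and Pvalb, 0 for Th, 1 for Nos1 and 2 for Myh13. DESeq2 called 453, 203, 439, 217, 145, 171 and 303 genes for Hpse, Calb2, Pvalb, Crh, Th, Nos1 and Myh13, with 1, 2, 3, 0, 0, 1 and 2 members, 88 genes for P97 against P45 and 1353 for SST against Slc17a7-positive cells.

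In cells thinned to 2000 UMIs the calls were 129, 124, 248, 100, 192 and 204 for Hpse, Calb2, Pvalb, Crh, Nos1 and Myh13, with 1, 0, 2, 0, 1 and 0 members, and 140 for Hpse-only cells, with 0 members. There the log2 fold changes in the Hpse split were -0.4273 for Extl2 and -0.3352 for Hs6st1. With Hpse called at full depth and sums over thinned cells, an alternative chosen after seeing the data, 374 genes and 1 member passed. In cells of at least 5000 UMIs there were 3 members for Hpse, 321 genes for Nos1, 276 genes and 2 members for Myh13, and 260 genes and 0 members for Hpse-only cells. Without cells of at least 3 Slc17a7 UMIs or without the deepest 2% of cells, 6 and 5 members passed for Hpse. The GFP+ library as a further block left 3 members for Hpse, and no filter on low counts gave 730 genes for P97 against P45.

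With each library left out in turn, calls ranged from 817 to 1263 for Hpse (1 to 4 members), 292 to 555 for Calb2, 231 to 578 for Crh (0 to 1 members), 262 to 592 for Myh13 (1 to 5 members), 237 to 331 for Hpse-only cells (0 to 1 members) and 1432 to 2402 for SST against Slc17a7-positive cells. Members ranged from 1 to 3 for Nos1. Without the P97 library B3gat3 had a log2 fold change of 0.0179 in the Hpse split, against -0.0964 without P45 replicate 2. Leaving out either P45 library, and thinning, could not be fitted for Th. Depth limits rare genes such as Ndst3, Gpc4 and Gpc5, whose levels rest on 23 to 90 UMIs.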
